A study of Homo sapiens with 10 samples.

Results

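Nuclear genes of oxidative phosphorylation were followed in ReNcell VM neurospheres exposed to phthalates while they differentiated for 6 days. ReNcell VM is a line of human neural progenitors that has been immortalised. The members were all genes whose symbols mark them as subunits of respiratory complexes I to IV or of ATP synthase (complex V), with pseudogenes left out. This gave 85 of the 46427 genes in the table: 36 for complex I, 4 for complex II, 9 for complex III, 17 for complex IV, 18 for complex V and COX7A2L, a supercomplex assembly factor. Of these, 79 had enough counts for a test, and 49 pseudogenes that matched the same pattern were left out. The 10 libraries formed 5 groups of 2: DEP (diethyl phthalate), DProP, DPP and Mix, each labelled 100 µM, and a vehicle control (0.1% DMSO). DProP commonly abbreviates di-n-propyl phthalate. Several phthalates share the abbreviation DPP, so it is not assigned a structure here, and the components of Mix are not stated. Each library held the RNA of 6 pooled neurospheres of the 1 line. Whether the libraries of 1 group are separate cultures is not stated, so the p values reflect only library-to-library spread, which may be technical.

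Oxidative phosphorylation couples electron transfer along the inner mitochondrial membrane to ATP synthesis. Complex I oxidises NADH, complex II oxidises succinate, complex III passes electrons from ubiquinol to cytochrome c, complex IV reduces oxygen, and complex V uses the resulting proton gradient to make ATP. Complexes I, III, IV and V combine subunits encoded in the nucleus and in mitochondrial DNA, whereas complex II is encoded in the nucleus alone. Neurons depend heavily on this pathway, and neural differentiation is accompanied by a shift from glycolysis towards it. Transcription factors such as NRF1, GABPA (an ETS factor) and YY1 bind promoters of many of these nuclear genes.

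Promoter sequences were available from RefSeq (GRCh38.p14) for 69 of the 85 members, as 82 windows of 250 bases before to 50 bases after an annotated start, with several starts for some genes. The palindromic NRF1 site, searched like the other motifs on both strands, lay in 4.88% of the member windows and in 1.24% of all 35116 windows. Its core TGCGCA, which overlaps the palindrome, lay in 26.8% and 8.24%, the ETS core CCGGAAGT in 14.6% and 4.14%, and the YY1 core in 4.88% and 0.849%. Among the windows of tested protein-coding genes the shares were 1.81% for the NRF1 palindrome, 11.2% for its core, 6.53% for the ETS core and 1.47% for the YY1 core. The 5 stretches below are the 250 bases before an annotated start, chosen after the values were seen to set promoters of genes that fell beside one of a gene without a call, with matches in capitals. NDUFA1 (X:119871582-119871831, plus strand) and COX4I1 (16:85799445-85799694, plus strand) were lower in every treatment and held none of these letters in this stretch. UQCRH (1:46303448-46303697, plus strand), also lower in every treatment, held an ETS core. NDUFB4 (3:120596086-120596335, plus strand), lower in DProP (-0.34) and Mix (-0.37), held the NRF1 palindrome with an overlapping core. Both NDUFB4 calls were lost without Vehicle replicate 2 and with library size alone, the DProP call also without DProP replicate 2 and the Mix call without Mix replicate 1. SDHD (11:112086623-112086872, plus strand), without a call in any comparison, held the palindrome with an overlapping core and an ETS core.
NDUFA1: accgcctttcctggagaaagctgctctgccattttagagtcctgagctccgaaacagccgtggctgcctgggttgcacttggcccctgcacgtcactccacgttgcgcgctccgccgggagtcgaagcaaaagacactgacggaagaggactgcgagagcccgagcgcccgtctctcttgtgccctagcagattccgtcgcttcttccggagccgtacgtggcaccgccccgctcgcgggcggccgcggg
COX4I1: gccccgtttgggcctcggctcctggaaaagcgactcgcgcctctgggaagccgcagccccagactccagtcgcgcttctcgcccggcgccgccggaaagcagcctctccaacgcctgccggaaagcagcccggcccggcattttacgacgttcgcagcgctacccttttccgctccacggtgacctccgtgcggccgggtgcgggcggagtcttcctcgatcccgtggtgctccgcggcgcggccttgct
UQCRH: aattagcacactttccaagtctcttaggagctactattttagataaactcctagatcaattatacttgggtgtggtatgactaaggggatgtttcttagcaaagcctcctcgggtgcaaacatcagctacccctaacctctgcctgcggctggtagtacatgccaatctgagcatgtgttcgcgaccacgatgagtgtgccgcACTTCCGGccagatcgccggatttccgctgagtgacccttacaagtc
NDUFB4: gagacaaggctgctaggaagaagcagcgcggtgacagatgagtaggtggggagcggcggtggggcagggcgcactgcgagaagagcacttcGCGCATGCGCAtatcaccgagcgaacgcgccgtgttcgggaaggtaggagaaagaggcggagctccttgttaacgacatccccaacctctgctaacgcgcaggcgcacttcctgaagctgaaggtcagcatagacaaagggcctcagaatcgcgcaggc
SDHD: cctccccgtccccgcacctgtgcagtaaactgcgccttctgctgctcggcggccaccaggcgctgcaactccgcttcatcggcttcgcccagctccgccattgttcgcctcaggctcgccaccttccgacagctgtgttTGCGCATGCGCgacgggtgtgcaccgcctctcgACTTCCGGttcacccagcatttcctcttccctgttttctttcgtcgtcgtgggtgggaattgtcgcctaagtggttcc
The ETS core lay 47 to 40 bases before the start in UQCRH and 78 to 71 bases before it in SDHD. The NRF1 palindrome lay 159 to 150 bases before the start in NDUFB4 and 110 to 101 bases before it in SDHD. A match is a description of these letters and not of binding.

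Library totals ran from 57222381 to 72973100 counts. Members took 0.398 to 0.447% of the counts in treated libraries, against 0.415 and 0.443% in vehicle libraries. In other RNA classes the 2 vehicle libraries differed from the 8 treated ones. The long non-coding RNA MALAT1 took 0.342 to 0.394% of counts in treated libraries and 1.25 and 0.946% in vehicle libraries, and the 13 mitochondrially encoded subunits took 0.0825 to 0.107% in treated libraries and 0.0255 and 0.0343% in vehicle libraries. The part of these differences in the results below was not tested, and every comparison with vehicle rests on the same 2 vehicle libraries. In bulk RNA, fewer cells of a type and less RNA per cell cannot be told apart.

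Summed over its members, complex I had 1690 to 1915 CPM (counts scaled to library size and TMM factor) in treated libraries, against 2009 and 2146 CPM in vehicle libraries, so the groups did not overlap under TMM scaling. Complex III had 516.4 to 598 CPM in treated libraries and 647.8 and 697.7 CPM in vehicle libraries, and complex IV had 523.7 to 610.1 CPM in treated libraries and 655.2 and 701.7 CPM in vehicle libraries, again without overlap under TMM scaling. Complex II had 213.4 to 240 CPM in treated libraries and 214.9 and 229.2 CPM in vehicle libraries. Complex V had 868.4 to 990.7 CPM in treated libraries and 949.6 and 1016 CPM in vehicle libraries. In complexes II and V the treated and vehicle libraries overlapped. These separations depend on the scaling: with library size alone, complex I had 1751 to 1949 CPM in treated libraries and 1842 and 1964 CPM in vehicle libraries, complex III 535 to 612.4 CPM and 593.9 and 638.4 CPM, and complex IV 541 to 621.1 CPM and 600.7 and 642.1 CPM, so that all 3 overlapped. Complex II then had 214.3 to 245.3 CPM in treated libraries and 197 and 209.7 CPM in vehicle libraries, without overlap, and complex V still overlapped.

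**Figure D1:**
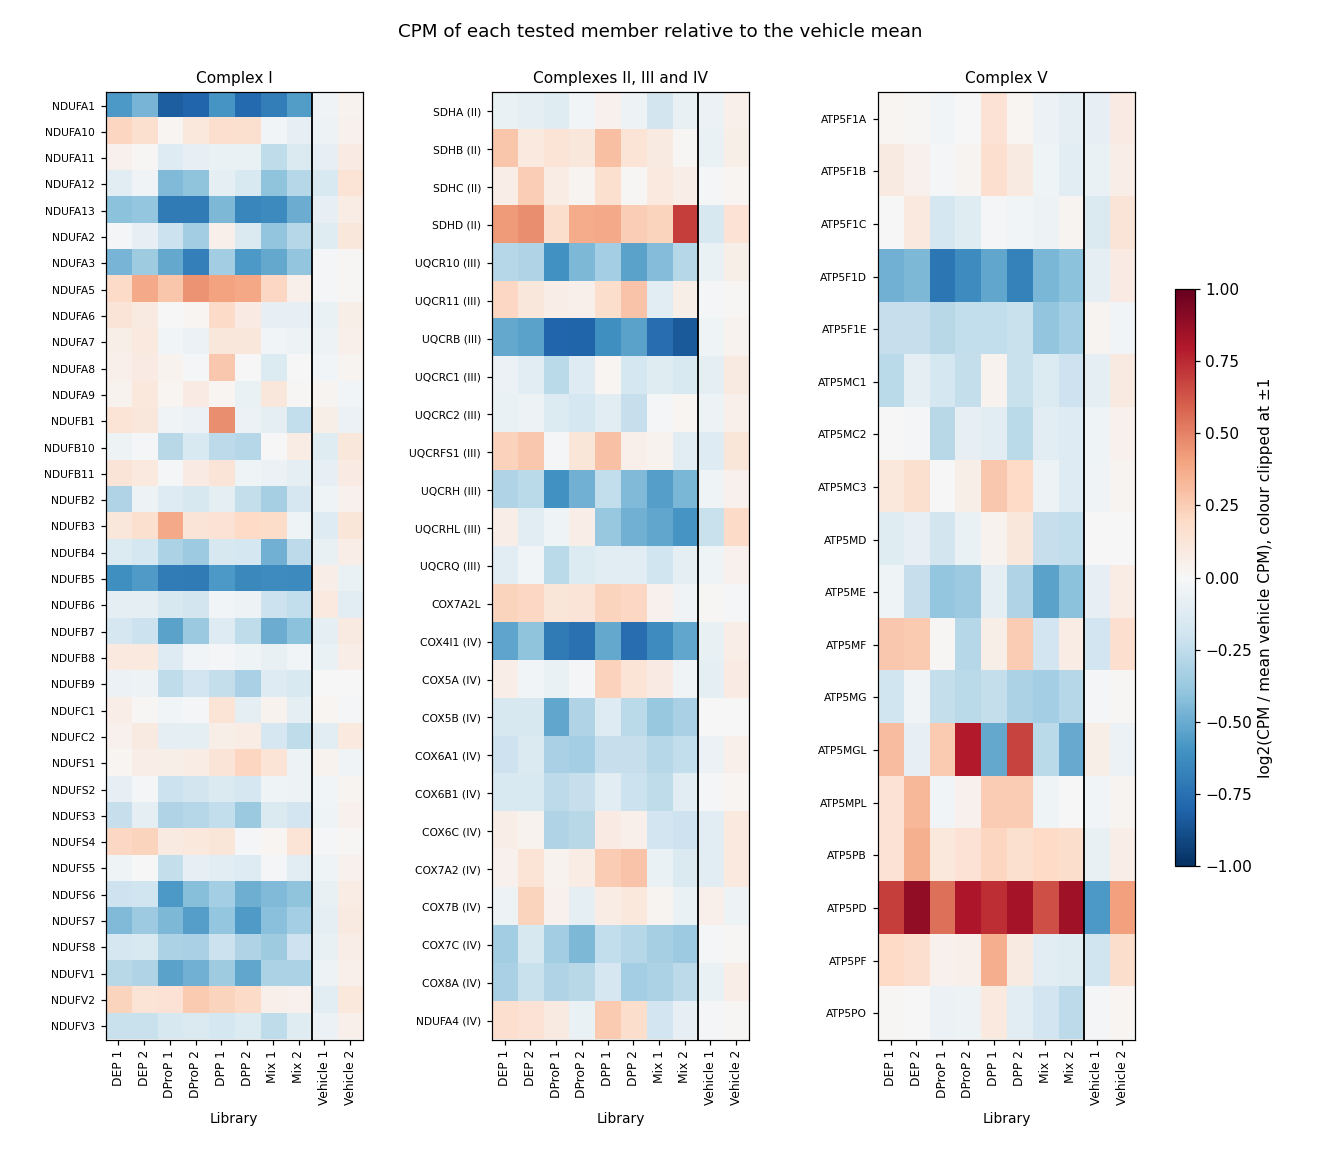
Level of each of the 79 tested members in each library (columns, treated libraries left of the black line and vehicle libraries right of it), as log2 of its CPM over the mean vehicle CPM, with members in rows grouped by complex and colours clipped at 1 to either side. Rows such as NDUFA1, NDUFB5, UQCRB and COX4I1 are blue, below the vehicle mean, in all 8 treated libraries under TMM scaling, as is ATP5F1D in complex V.

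Each treatment was compared with vehicle to learn how it changed the members. With DEP, 21 members passed the test in edgeR's quasi-likelihood fit (adjusted p under 0.05 after Benjamini-Hochberg adjustment over all 19465 genes tested), 5 higher and 16 lower, where 23.6% of all genes tested were called. With DProP, 30 passed, 1 higher and 29 lower, where 32.2% of all genes were called. With DPP, 31 passed, 8 higher and 23 lower, where 36.2% of all genes were called. With Mix, 25 passed, 0 higher and 25 lower, where 20.4% of all genes were called, 9.71% higher and 10.7% lower; 39 members had an unadjusted p under 0.05, and DESeq2 called 27 members. The members' shares called were 26.6% with DEP, 38% with DProP, 39.2% with DPP and 31.6% with Mix. They were near these backgrounds for DEP and DPP, somewhat above for DProP and furthest above for Mix. None of these differences in share was tested. The direction was less even: genes called higher were 6.33% of members against 10.1% of all genes with DEP, 1.27% against 14.7% with DProP and 10.1% against 16.7% with DPP. Genes called lower were 20.3% of members against 13.5% of all genes with DEP and 36.7% against 17.5% with DProP. They were 29.1% against 19.5% with DPP and 31.6% against 10.7% with Mix. Of 14902 tested protein-coding genes, 2509 were called lower with DEP, 3217 with DProP, 3605 with DPP and 1925 with Mix. Those called higher were 1205, 1986, 2325 and 1300. Protein-coding genes thus leaned lower more than all genes tested, so the members' lean is smaller against them.

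The changes were modest. The median log2 fold change over the 79 tested members was -0.02 with DEP, -0.15 with DProP, -0.04 with DPP and -0.14 with Mix. Over all genes tested the median was 0.01 to 0.02. Over tested protein-coding genes it was -0.04 with DEP, DProP and DPP and -0.01 with Mix. Against protein-coding genes, the DEP member median was thus not lower, and the DPP member median was equal after rounding. A single member's 95% interval reached a median of 0.17 to each side. These directions depend on the scaling. With library size alone in place of TMM, which moved the median of all genes tested by comparison to 0.16 with DEP, 0.19 with DProP, 0.18 with DPP and 0.16 with Mix, members called were 26 higher and 7 lower with DEP, 15 and 15 with DProP, 26 and 11 with DPP, and 4 and 13 with Mix. Of the 93 decreases called against vehicle over the 4 comparisons, 47 lost their call with library size alone and 17 after correction for GC content and length. Of the 14 increases, 0 lost their call with library size alone and 13 after that correction, the exception being UQCR11 with DPP. Leaving out 1 library also moved the counts: with DEP, 9 members were called without DEP replicate 1, 9 without DEP replicate 2 and 13 without Vehicle replicate 2; with DPP, 17 were called without DPP replicate 2; and with Mix, 13 were called without Mix replicate 1.

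**Figure D2:**
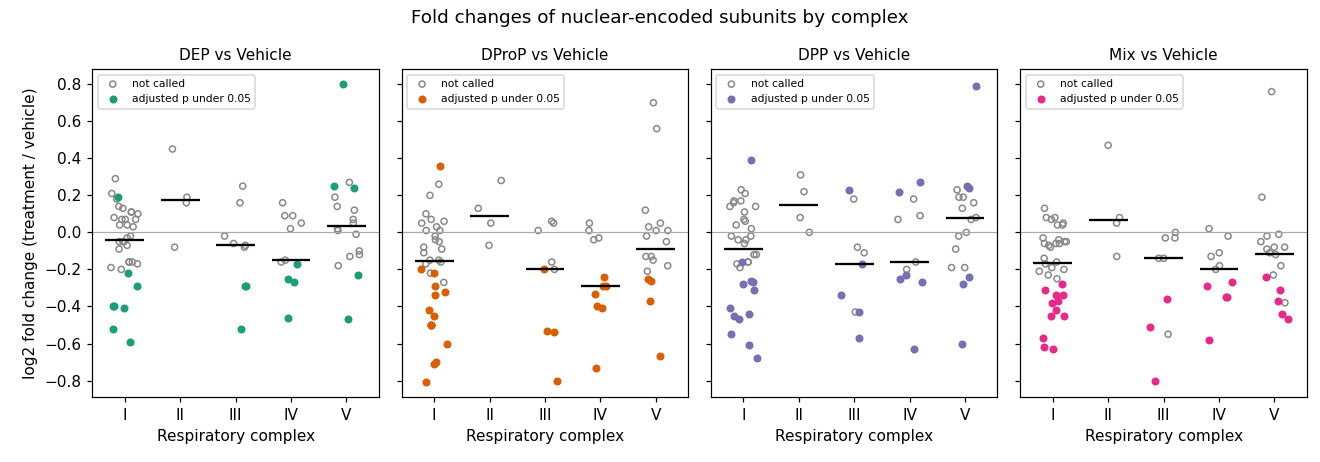
Log2 fold change of treatment over vehicle for each tested member of complexes I to V (COX7A2L not drawn), 1 panel per treatment, with filled points for adjusted p under 0.05, open points for the others and black bars for the median of each complex. Under TMM scaling filled points below 0 outnumber those above 0 in each panel, and complex II has no filled point. With library size alone, calls over all members were 26 higher and 7 lower with DEP, 15 and 15 with DProP, 26 and 11 with DPP, and 4 and 13 with Mix.

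Of all genes tested, 13.5% were called lower and 10.1% higher with DEP, and 17.5% and 14.7% with DProP. The shares were 19.5% and 16.7% with DPP, and 10.7% and 9.71% with Mix. They are the background for the counts in each complex below, which were not tested against them. Protein-coding genes alone were called lower more often than these shares, as counted above. In complex I, 7 of 36 members fell and 1 rose with DEP, and 14 fell and 1 rose with DProP. With DPP 12 fell and 1 rose, and with Mix 12 fell. The largest decreases were in accessory subunits, which surround the catalytic core. NDUFA1, an accessory subunit of the membrane arm, had 106.2 and 114.7 CPM with DEP, 89.3 and 91 CPM with DProP, 104.9 and 92.3 CPM with DPP and 98 and 107.4 CPM with Mix, against 153.8 and 162.1 CPM in vehicle libraries. All 8 treated libraries lay below both vehicle libraries. Its log2 fold change was -0.52 ± 0.08 (SE) with DEP, -0.81 ± 0.08 with DProP, -0.68 ± 0.08 with DPP and -0.62 ± 0.08 with Mix (edgeR adjusted p of 0.000719, 2.13e-05, 4.62e-05 and 0.000224).

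NDUFB5, another membrane-arm accessory subunit, had 50.2 and 51.9 CPM with DEP, 47.3 and 46.9 CPM with DProP, 51.4 and 49.1 CPM with DPP and 49.7 and 49.2 CPM with Mix, against 80.2 and 73.1 CPM in vehicle libraries. The treated libraries differed little among themselves and lay below both vehicle libraries. The log2 fold change of NDUFB5 was -0.59 ± 0.06 with DEP, -0.70 ± 0.06 with DProP, -0.61 ± 0.06 with DPP and -0.63 ± 0.06 with Mix (SE; edgeR adjusted p of 0.000121, 1.88e-05, 3.27e-05 and 7.36e-05). NDUFA13, an accessory subunit also known as GRIM-19, averaged 117.2 ± 1.23 CPM with DEP, 94.7 ± 0.122 CPM with DProP, 105.7 ± 10.4 CPM with DPP and 104.3 ± 7.37 CPM with Mix, against 154.4 ± 12.1 CPM in vehicle libraries (SD, n = 2 each). It was lower with each treatment, by -0.40, -0.71, -0.55 and -0.57 on the log2 scale for DEP, DProP, DPP and Mix. The calls of NDUFA1, NDUFB5 and NDUFA13 against vehicle held in each alternative setting run.

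The 7 core catalytic subunits of complex I moved unevenly. NDUFV1, which binds NADH and flavin, had 154.5 and 151.8 CPM with DEP, 129.3 and 134 CPM with DProP, 145.8 and 130.3 CPM with DPP and 150.5 and 150.4 CPM with Mix, against 180.5 and 193.3 CPM in vehicle libraries. It was lower in every treated library, by -0.29 ± 0.06 with DEP, -0.50 ± 0.07 with DProP, -0.44 ± 0.07 with DPP and -0.31 ± 0.06 with Mix (log2, SE). Its DEP call was lost without Vehicle replicate 2 or DEP replicate 2 and after correction for GC content and length, and its DEP and Mix calls were lost with library size alone. NDUFS7, which carries the last iron-sulfur cluster before ubiquinone, was lower by -0.40, -0.50, -0.47 and -0.38 in the same order of treatments, with the DEP call lost without DEP replicate 1 and the Mix call without Vehicle replicate 2 or Mix replicate 1, with library size alone and after the GC and length correction. NDUFS1, the largest subunit of the peripheral arm, did not pass the edgeR test under TMM scaling. With library size alone it was called higher with DEP, DProP and DPP, and DESeq2 called it higher with DPP. It had 132.5 and 136.4 CPM with DEP, 136.1 and 137.6 CPM with DProP, 142.6 and 151.7 CPM with DPP and 143.4 and 125.7 CPM with Mix, against 133.9 and 127.1 CPM in vehicle libraries. The 95% interval of its log2 fold change ran from -0.11 to 0.19 with DEP, from -0.08 to 0.22 with DProP, from 0.02 to 0.32 with DPP and from -0.11 to 0.20 with Mix. Over the core subunits, 2 of 7 fell with DEP, 5 with DProP, 5 with DPP and 3 with Mix, against 5, 9, 7 and 9 of the 29 supernumerary subunits.

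Among other accessory subunits, NDUFS6, which binds zinc, averaged 60.8 ± 0.323 CPM with DEP, 49.4 ± 3.57 CPM with DProP, 52.5 ± 3.76 CPM with DPP and 52.3 ± 1.07 CPM with Mix, against 69.9 ± 4.97 CPM in vehicle libraries (SD, n = 2 each). Its calls with DProP (-0.50), DPP (-0.41) and Mix (-0.42) held in each alternative. NDUFA12 fell with DProP (-0.42 ± 0.09, SE) and with Mix (-0.34 ± 0.09), and NDUFB7 fell with DProP (-0.45 ± 0.09) and Mix (-0.45 ± 0.09). The NDUFA12 call with Mix was lost without Vehicle replicate 2 or Mix replicate 1 and with library size alone. Both NDUFB7 calls were lost after a correction for GC content and length. NDUFA5, at 7.03 and 7.15 CPM in vehicle libraries, was higher with DProP (8.57 and 9.66 CPM, log2 fold change 0.36 ± 0.12) and DPP (9.35 and 9.25 CPM, 0.39 ± 0.12), and both calls were lost without either vehicle library, the DProP call also without DProP replicate 2 and the DPP call without either DPP library. Both NDUFA5 calls were also lost after the GC and length correction, and the DProP call under DESeq2 and without the filter. NDUFA10 was higher with DEP (0.19 ± 0.06), a call lost without Vehicle replicate 1 or either DEP library, after the GC and length correction, with the replicate block and without the filter.

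None of the 4 complex II genes passed the edgeR test with any treatment under TMM scaling. With library size alone, SDHB was called higher with DEP, DProP and DPP, SDHC with each treatment, and SDHD with DEP, DPP and Mix. SDHA, the flavin-bearing subunit, had 123.2 and 120.6 CPM with DEP, 118.7 and 126.4 CPM with DProP, 132.7 and 124.6 CPM with DPP and 113.3 and 122.5 CPM with Mix, against 124.1 and 133.9 CPM in vehicle libraries. The 3 SDHA pseudogene rows of the table held counts equal to 110.5% of those of SDHA, so how reads were divided between the gene and its copies limits this value. SDHB, the iron-sulfur subunit, had 29.7 and 26.2 CPM with DEP, 27 and 26.5 CPM with DProP, 30.2 and 27 CPM with DPP and 26.1 and 24.8 CPM with Mix, against 23.5 and 25.6 CPM in vehicle libraries. For SDHB the 95% interval of the log2 fold change ran from -0.01 to 0.38 with DEP, -0.07 to 0.32 with DProP, 0.02 to 0.42 with DPP and -0.14 to 0.25 with Mix. The membrane anchor gene SDHD had 5.26 to 7.49 CPM over treated libraries and 4.16 and 5.13 CPM in vehicle libraries. SDHC, the other membrane anchor gene, had log2 fold changes of 0.05 to 0.16, none called.

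In complex III, 3 of 9 members fell with DEP, 4 fell with DProP, 4 fell and 1 rose with DPP, and 3 fell with Mix. Small subunits made up these decreases, except for UQCRC2 with DPP. UQCRB, a small subunit near the site of ubiquinone binding, had 120.6 and 118.7 CPM with DEP, 98.8 and 98.3 CPM with DProP, 112.4 and 118.1 CPM with DPP and 101.1 and 95.9 CPM with Mix, against 167 and 176.2 CPM in vehicle libraries. DProP and Mix libraries were lowest, DEP and DPP libraries lay between, and no treated library reached a vehicle library. The log2 fold change of UQCRB was -0.52 ± 0.06 with DEP, -0.80 ± 0.06 with DProP, -0.57 ± 0.06 with DPP and -0.80 ± 0.06 with Mix (SE; edgeR adjusted p of 0.000135, 5.34e-06, 2.43e-05 and 9.33e-06), and each call held in every alternative.

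UQCRH, the acidic hinge protein that helps bind cytochrome c1 to cytochrome c, had 71 and 72.3 CPM with DEP, 57.4 and 62.5 CPM with DProP, 73.8 and 64.2 CPM with DPP and 59.5 and 63.5 CPM with Mix, against 84.8 and 89.9 CPM in vehicle libraries. It was lower by -0.29 with DEP, -0.54 with DProP, -0.34 with DPP and -0.51 with Mix on the log2 scale, with an SE of 0.08 each. The calls with DProP and Mix held in each alternative, while that with DEP was lost without either DEP library or without Vehicle replicate 2, and that with DPP without DPP replicate 2, both also with library size alone. UQCR10 was lower by -0.29, -0.53, -0.43 and -0.36 with DEP, DProP, DPP and Mix, with an SE of 0.09 each. The DEP call was lost without Vehicle replicate 2 or either DEP library, the Mix call without Vehicle replicate 2 or Mix replicate 1, and both with library size alone. UQCR11, another small subunit, was the member higher with DPP (69.8 and 75.3 CPM with DPP, 61.2 and 62.5 CPM in vehicle libraries, 0.23 ± 0.07), a call lost without either vehicle library or DPP replicate 2.

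Of the larger subunits, UQCRC1, a core subunit, had 75.6 to 92.5 CPM over treated libraries and 85.5 and 96.9 CPM in vehicle libraries and was not called with any treatment (log2 fold changes of -0.08, -0.20, -0.08 and -0.14). UQCRFS1, the Rieske iron-sulfur protein, had 35.9 to 47.5 CPM over treated libraries and 35.5 and 42.2 CPM in vehicle libraries. It was not called either under TMM scaling (0.25, 0.05, 0.18 and -0.03). With library size alone, UQCRFS1 was called higher with DEP and DPP. UQCRC2, the other core subunit, was lower with DPP (-0.17 ± 0.06, edgeR adjusted p of 0.0465), a call lost when Vehicle replicate 2 or DPP replicate 2 was left out, with library size alone, with the replicate block and without the filter. UQCRHL, an intron-less copy of UQCRH, had 1.61 to 2.53 CPM over treated libraries and 2.07 and 2.77 CPM in vehicle libraries and was not called. After the GC and length correction UQCRHL was called lower with DPP.

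In complex IV, 4 of 11 tested members fell with DEP, 7 fell with DProP, 4 fell and 2 rose with DPP, and 5 fell with Mix. COX4I1, the ubiquitous isoform of the largest nuclear-encoded subunit, had 115.4 and 125.7 CPM with DEP, 101.6 and 99 CPM with DProP, 116.9 and 98.1 CPM with DPP and 107.3 and 115.9 CPM with Mix, against 158.2 and 174.3 CPM in vehicle libraries. All 8 treated libraries lay below both vehicle libraries. The log2 fold change of COX4I1 was -0.46 ± 0.09 with DEP, -0.73 ± 0.09 with DProP, -0.63 ± 0.09 with DPP and -0.58 ± 0.09 with Mix (SE; edgeR adjusted p of 0.00285, 0.000111, 0.0002 and 0.00094). COX5A, which sits beside it in the enzyme, had 10.1 to 12.4 CPM over treated libraries and 9.95 and 11.2 CPM in vehicle libraries. None of its log2 fold changes (0.02, -0.04, 0.18 and 0.02) was called under TMM scaling. With library size alone, COX5A was called higher with DPP. COX7C, a small transmembrane subunit, averaged 51.2 ± 4.62 CPM with DEP, 46.2 ± 2.26 CPM with DProP, 50.7 ± 1.08 CPM with DPP and 47.8 ± 0.728 CPM with Mix, against 60.9 ± 0.613 CPM in vehicle libraries (SD, n = 2 each). Its decreases with DProP (-0.40) and Mix (-0.35) held in each alternative, whereas that with DEP (-0.25) was lost without either vehicle library or DEP replicate 1, and that with DPP (-0.27) without Vehicle replicate 2 or DPP replicate 2, and both with library size alone.

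COX6A1 and COX8A fell with each of the 4 treatments, COX6A1 by -0.17, -0.33, -0.23 and -0.27 and COX8A by -0.27, -0.29, -0.25 and -0.29 on the log2 scale. The counts of 2 COX6A1 pseudogene rows came to 9.97% of those of COX6A1. Its call with DEP was lost in 8 of 10 alternatives, including without Vehicle replicate 2 or either DEP library. Its DPP call was lost without Vehicle replicate 2, and its Mix call without Vehicle replicate 2 or Mix replicate 1 and after the GC and length correction. All 4 COX6A1 calls were lost with library size alone. Each COX8A call was lost without Vehicle replicate 2, and also without either library of DEP, DProP or Mix in their own comparisons and without DPP replicate 2 in that of DPP. All 4 COX8A calls were also lost with library size alone and after the GC and length correction, and those with DEP and DPP with the replicate block. COX5B fell with DProP (-0.41 ± 0.09) and Mix (-0.35 ± 0.09), with the Mix call lost without either vehicle library or Mix replicate 1 and after the GC and length correction, and both calls lost with library size alone. Higher with DPP were COX7A2 (0.27 ± 0.09, edgeR adjusted p of 0.029) and NDUFA4 (0.22 ± 0.08, edgeR adjusted p of 0.0487), a complex IV subunit first assigned to complex I, and both were lost without Vehicle replicate 1 or either DPP library and after the GC and length correction. The NDUFA4 call was lost in 8 of 10 alternatives, among them DESeq2, the replicate block, no filter and leaving out Vehicle replicate 2. COX7A2L, which helps join complexes III and IV, was higher with DEP (61.6 and 60.9 CPM) and DPP (61.6 and 60.9 CPM) than in vehicle libraries (53.1 and 52.4 CPM), by 0.22 ± 0.06 in each case. The DEP call was lost without any 1 of its 4 libraries, and the DPP call without Vehicle replicate 2 or DPP replicate 1. Both were also lost after the GC and length correction. The muscle, lung and testis isoforms were near absent: COX4I2, COX6A2 and COX7B2 had 0 counts in all libraries, COX7A1 had 3 counts, all in DEP replicate 2, and COX6B2 had 35 counts in all, and COX8C had 67 counts, of which 40 were in 1 vehicle library.

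In ATP synthase, 2 of 18 members fell and 3 rose with DEP, 4 fell with DProP, 3 fell and 3 rose with DPP, and 5 fell with Mix. Of the 5 F1 subunits, ATP5F1D and ATP5F1E of the central stalk fell with each treatment. The stalk's gamma subunit ATP5F1C was not called with any (0.05, -0.15, -0.02 and -0.01). After the GC and length correction ATP5F1C was called lower with DProP. ATP5F1D, the delta subunit, had 36.3 and 37.2 CPM with DEP, 30.8 and 32.8 CPM with DProP, 35.4 and 31.7 CPM with DPP and 36.9 and 38.1 CPM with Mix, against 47.7 and 53.8 CPM in vehicle libraries. It was lower in every treated library, by -0.47 ± 0.08 with DEP, -0.67 ± 0.08 with DProP, -0.60 ± 0.08 with DPP and -0.44 ± 0.08 with Mix (log2, SE), and the Mix call was lost after correction for GC content and length. ATP5F1E, the epsilon subunit, averaged 103.5 ± 0.185 CPM with DEP, 101.1 ± 1.63 CPM with DProP, 103 ± 1.07 CPM with DPP and 94.1 ± 2.58 CPM with Mix, against 121.3 ± 3.03 CPM in vehicle libraries (SD, n = 2 each). Its decrease with Mix (-0.37 ± 0.05, SE) held in each alternative, and those with DEP (-0.23), DProP (-0.26) and DPP (-0.24) were lost with library size alone, and that with DEP also without Vehicle replicate 1 or either DEP library.

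Under TMM scaling the subunits that form the catalytic hexamer were not called. With library size alone, ATP5F1B was called higher with DEP, DProP and DPP, and ATP5F1A with DPP. ATP5F1A (alpha) had 104.5 and 104.2 CPM with DEP, 101.1 and 102.8 CPM with DProP, 114 and 104.6 CPM with DPP and 99 and 96.9 CPM with Mix, against 97.4 and 109.1 CPM in vehicle libraries. The 95% intervals of its log2 fold change ran from -0.13 to 0.16, -0.17 to 0.13, -0.06 to 0.23 and -0.22 to 0.07 for DEP, DProP, DPP and Mix. ATP5F1B (beta) had 149.6 to 182.1 CPM over treated libraries and 154.1 and 169.4 CPM in vehicle libraries, and the groups overlapped. Among genes of the stalk and membrane part, ATP5ME fell with DProP (-0.37 ± 0.09) and Mix (-0.47 ± 0.09), and ATP5MG fell with DProP (-0.25), DPP (-0.28) and Mix (-0.31). Without Vehicle replicate 2 both DProP calls were lost, without DProP replicate 2 that of ATP5MG, without DPP replicate 2 the DPP call, and without Mix replicate 1 both Mix calls. Library size alone ended each of these calls except that of ATP5ME with Mix. ATP5PD, a peripheral stalk subunit, was higher with DEP (2.86 and 3.28 CPM) and DPP (2.96 and 3.16 CPM) than in vehicle libraries (1.19 and 2.36 CPM), by 0.80 ± 0.26 and 0.79 ± 0.26. Both calls were lost without Vehicle replicate 1 or without either library of the treatment, and after the GC and length correction. ATP5MPL, a small subunit of the membrane part, was higher with DEP (0.24 ± 0.07) and DPP (0.25 ± 0.07), and ATP5PB, the peripheral stalk b subunit, with DEP (0.25 ± 0.08). These calls were lost without Vehicle replicate 1 and after the GC and length correction (ATP5PB also without the filter), with further losses without Vehicle replicate 2 (ATP5MPL with DEP), DEP replicate 2 (both genes) and either DPP library (ATP5MPL). ATP5MC3, a gene of the c-ring, was higher with DPP (0.24 ± 0.06), a call lost without Vehicle replicate 1 or DPP replicate 1 and after the GC and length correction.

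**Figure D3:**
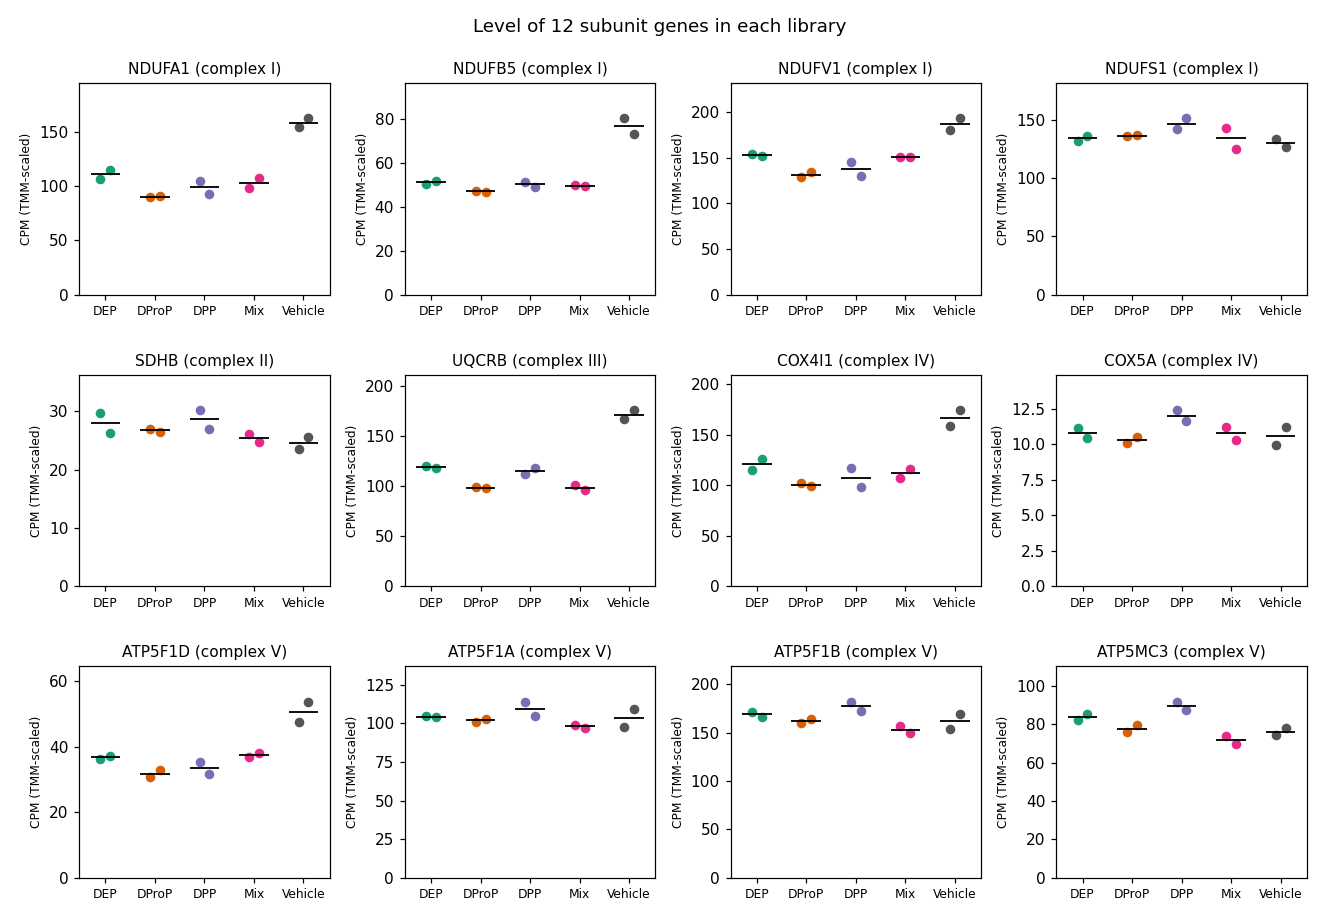
CPM of 12 members in each library (points), by group, with the group mean as a bar. NDUFA1, NDUFB5, NDUFV1, UQCRB, COX4I1 and ATP5F1D have every treated library below both vehicle libraries, while NDUFS1, SDHB, COX5A, ATP5F1A, ATP5F1B and ATP5MC3 do not.

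The treatments were also compared with one another, in 6 pairs at the same labelled concentration, with p values adjusted over genes within each pair. No member differed between DEP and DProP by edgeR, where 0.524% of all genes tested were called, 0.134% higher and 0.39% lower; 25 members had an unadjusted p under 0.05 and DESeq2 called 7, all higher in DEP. The median log2 fold change of DEP over DProP was 0.13 over the members and 0.00 over all genes tested. The smallest p was that of UQCRB, which was 0.28 higher in DEP than in DProP (95% interval 0.15 to 0.41, edgeR adjusted p of 0.0597). COX6C, a small complex IV subunit, had 53.2 and 52.1 CPM with DEP and 41.3 and 42 CPM with DProP (0.34, 95% interval 0.18 to 0.49, edgeR adjusted p of 0.0601).

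Between DEP and DPP, no member passed by edgeR either, where 2.93% of all genes were called, 1.58% higher and 1.36% lower; 7 members had an unadjusted p under 0.05 and DESeq2 called 1. Member medians were close, with a log2 fold change of DEP over DPP of 0.01. NDUFB9, a complex I accessory subunit, had the smallest p (0.23, 95% interval 0.10 to 0.35, edgeR adjusted p of 0.0641). Between DProP and DPP, no member passed by edgeR, where 0.262% of all genes were called, 0.118% higher and 0.144% lower; 16 had an unadjusted p under 0.05 and DESeq2 called 2. The member median of DProP over DPP was -0.10, and COX6C was the nearest to the threshold (-0.36, 95% interval -0.51 to -0.20, edgeR adjusted p of 0.0645). These intervals leave room for differences of up to 0.41 between DEP and DProP for UQCRB, so the missing calls do not show that the compounds act alike.

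Mix against DPP gave the most member calls of the 6 pairs, and also the most calls over all genes tested. Of the members, 13 (16.5%) passed, 1 higher (1.27%) and 12 lower (15.2%) in Mix. Of all genes, 17.3% were called, 10.4% higher and 6.82% lower, so the members' share called was near the background. ATP5MC3, which encodes the c subunit of the rotating ring, had 73.7 and 69.9 CPM with Mix and 91.8 and 87.7 CPM with DPP. These did not overlap, and its log2 fold change was -0.32 ± 0.06 (SE, edgeR adjusted p of 0.00416), the only one of these calls that held in each alternative. ATP5MD, a small subunit linked to the pairing of ATP synthase dimers, had 48.5 and 48 CPM with Mix and 58.3 and 61.5 CPM with DPP (-0.31 ± 0.06, edgeR adjusted p of 0.00587), a call lost after correction for GC content and length. COX7A2 (23.2 and 22 CPM with Mix, 29 and 29.6 CPM with DPP) and NDUFA4 (22.5 and 24.3 CPM with Mix, 30.8 and 29 CPM with DPP) were lower in Mix by -0.37 ± 0.09 and -0.35 ± 0.08. NDUFB10, a complex I accessory subunit, was the member higher in Mix, with 90.3 and 94.9 CPM with Mix and 75 and 73.9 CPM with DPP (0.31 ± 0.08). Without 1 library the count was 5 (DPP replicate 1), 6 (DPP replicate 2), 6 (Mix replicate 1) or 4 (Mix replicate 2).

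Against DEP, 2 members (2.53%) were lower in Mix, where 3.86% of all genes were called, 2.85% higher and 1.02% lower. These were UQCRB (101.1 and 95.9 CPM with Mix, 120.6 and 118.7 CPM with DEP, -0.28 ± 0.06) and NDUFA10 (85.5 and 82.3 CPM with Mix, 101.5 and 97.8 CPM with DEP, -0.25 ± 0.06). Neither was called once any of the 4 libraries was left out, whereas DESeq2 called 12 members, all lower in Mix. Between Mix and DProP no member passed by edgeR, where 6.89% of all genes were called, 4.36% higher and 2.53% lower; 9 members had an unadjusted p under 0.05 and DESeq2 called 1. The member median of Mix over DProP was 0.00.

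**Figure D4:**
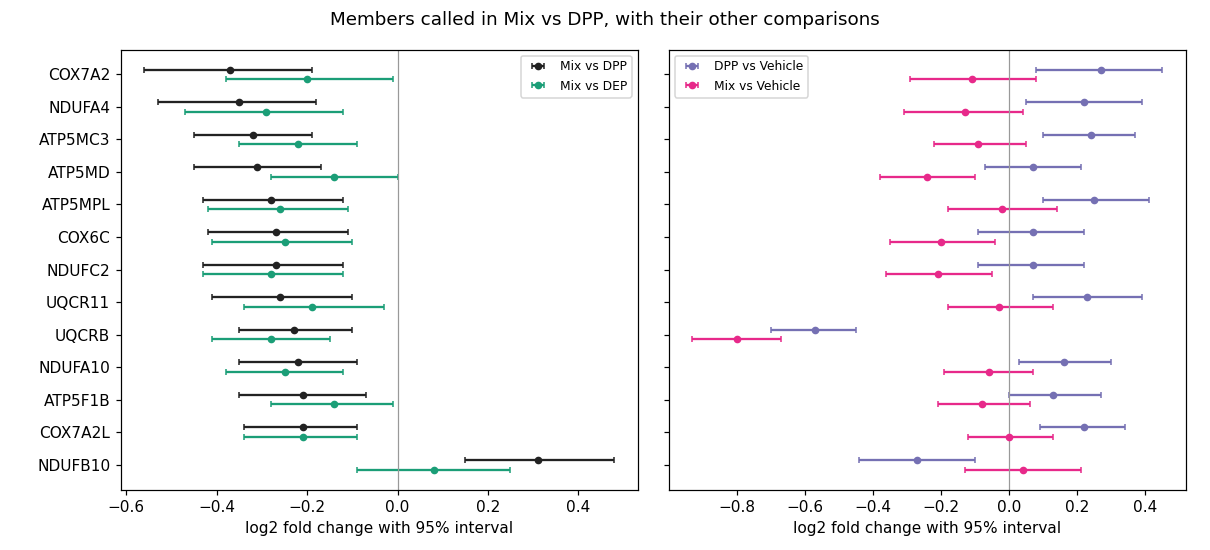
Log2 fold changes with 95% intervals for the 13 members called between Mix and DPP. The left panel sets Mix against DPP and against DEP, and the right panel shows DPP and Mix against vehicle. Of the 13 members, 12 lie below 0 for Mix over DPP and NDUFB10 lies above 0.

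Levels of different genes were compared per kb of coding sequence. The median over tested members was 92.8 CPM per kb as a mean over all libraries. ATP5F1E (683.6), NDUFA1 (533.2) and COX6A1 (527.2 CPM per kb) were the highest, and ATP5MGL (2.47), ATP5PD (5.69), UQCRHL (7.82) and SDHD (12.1 CPM per kb) were the lowest. How the capture probes and the counting treat each gene was not tested. The members were short, with a median coding length of 387 bases against 1407 bases for tested protein-coding genes, while their median GC content was 51.3% against 52.8%.

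The log2 fold changes against vehicle fell with GC content among the members (Spearman correlation of -0.37 with DEP, -0.38 with DProP, -0.39 with DPP and -0.30 with Mix over 79 genes of the same libraries). Over tested protein-coding genes the Spearman correlation was -0.34, -0.34, -0.30 and -0.36. After correction for GC content and coding length, 1 member was higher and 19 lower with DEP, 0 and 31 with DProP, 2 and 29 with DPP, and 0 and 20 with Mix, and the member medians were -0.05, -0.14, -0.10 and -0.13. UQCRB, at 41.4% GC, and NDUFB5 were lower in both fits.

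**Figure D5:**
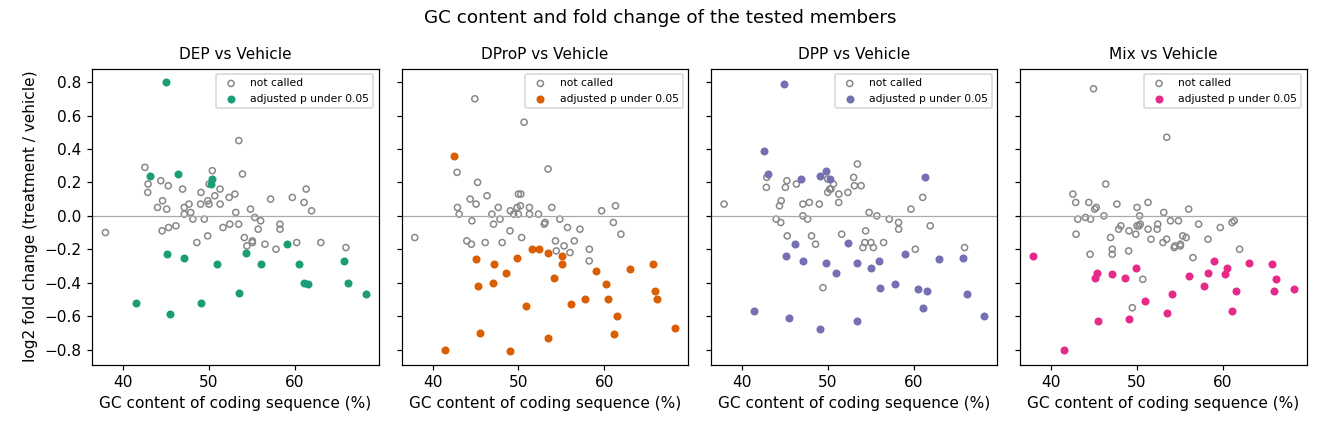
GC content of the coding sequence (horizontal, %) and log2 fold change over vehicle (vertical) for the 79 tested members, 1 panel per treatment, with filled points for adjusted p under 0.05. Called increases lie between 42.5% (NDUFA5) and 50.3% (COX7A2L) GC, except UQCR11 at 61.3%, and called decreases span 37.9% (ATP5MD) to 68.3% (ATP5F1D).

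The 13 subunits encoded in mitochondrial DNA were compared with vehicle as well. All 13 rose with each treatment, with median log2 fold changes of 1.46 with DEP, 1.53 with DProP, 1.69 with DPP and 1.63 with Mix. ND4, a complex I subunit, had 122 and 128 CPM with DEP, 136.3 and 138.6 CPM with DProP, 129.8 and 164 CPM with DPP and 159 and 151.8 CPM with Mix, against 44.4 and 53.6 CPM in vehicle libraries. COX1, the catalytic subunit of complex IV, had log2 fold changes of 1.29 ± 0.12 with DEP, 1.32 ± 0.12 with DProP, 1.42 ± 0.12 with DPP and 1.57 ± 0.12 with Mix (SE). The labels name an exome capture kit, whose probes for mitochondrial transcripts are not described in the sources used here.

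Related gene lists were set beside the members as counts. Over all genes tested, 10.1% were called higher and 13.5% lower with DEP, and 14.7% and 17.5% with DProP. With DPP they were 16.7% and 19.5%, and with Mix 9.71% and 10.7%. These shares are the background for the counts of each list below, which were not tested against them. Of 46 assembly factors, 6 rose and 3 fell with DEP, 5 and 3 with DProP, 9 and 7 with DPP, and 2 and 4 with Mix. SDHAF3, an assembly factor of complex II, had 12.6 to 14.5 CPM over treated libraries and 19 and 19.7 CPM in vehicle libraries, and fell with each treatment. COX11, which delivers copper to complex IV, fell by -0.31, -0.45, -0.24 and -0.47, and NDUFAF6, a complex I assembly factor, rose with DEP (0.40), DProP (0.51) and DPP (0.34). Of 6 complex members that the symbol pattern misses, 0 were called with DEP, 2 fell with DProP, 2 with DPP and 1 with Mix. ATP5IF1, the inhibitor of ATP synthase, fell with DProP (-0.34), DPP (-0.19) and Mix (-0.36), while CYC1, CYCS, NDUFAB1 and DMAC2L were not called with any treatment. NDUFA4L2, at 1.06 and 1.12 CPM in vehicle libraries, fell with DProP (0.456 and 0.574 CPM) and DPP (0.377 and 0.5 CPM).

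Of 18 regulators of these genes, 3 rose and 3 fell with DEP, 5 and 1 with DProP, 5 and 1 with DPP, and 1 and 1 with Mix. ESRRA, the nuclear receptor ERR alpha that activates many members, had 6.77 and 6.42 CPM with DEP, 6.31 and 6.69 CPM with DProP, 5.33 and 6.94 CPM with DPP and 6.99 and 6.71 CPM with Mix, against 9.27 and 9.15 CPM in vehicle libraries. It fell by -0.48, -0.50, -0.59 and -0.43 (SE of 0.14 each). MTERF3, a factor of mitochondrial transcription and ribosome assembly, rose by 0.31, 0.51, 0.49 and 0.31, and LRPPRC, which stabilises mitochondrial mRNAs, rose with DEP (0.22), DProP (0.34) and DPP (0.35).

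Other mitochondrial lists showed no single direction. Of 78 mitochondrial ribosomal proteins, 7 rose and 5 fell with DEP, 8 and 10 with DProP, 11 and 9 with DPP, and 7 and 8 with Mix. MRPL39 rose by 0.45 to 0.70 and MRPS34 fell by 0.42 to 0.66 over the 4 treatments. Of 18 genes of the citric acid cycle and pyruvate dehydrogenase, 3 rose and 3 fell with DEP, 2 and 3 with DProP, 6 and 3 with DPP, and 2 and 1 with Mix, with FH (fumarase) higher and IDH2 (isocitrate dehydrogenase) lower in each. Of 23 carriers and quinone synthesis genes, 3 rose and 2 fell with DEP, 4 and 5 with DProP, 6 and 4 with DPP, and 1 and 2 with Mix. SLC25A6, an ADP/ATP carrier, had 423.5 to 537 CPM over treated libraries and 645.5 and 728.7 CPM in vehicle libraries, and fell with each treatment, while MPC1, a subunit of the pyruvate carrier, rose with DEP (0.21), DProP (0.25) and DPP (0.49).

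Cytosolic ribosomal proteins, another set of short and abundant transcripts, had more decreases than the members. Of 84 tested, 2 rose and 51 fell with DEP, 2 and 68 with DProP, 4 and 62 with DPP, and 2 and 65 with Mix, with medians of -0.36, -0.52, -0.49 and -0.51. Of 37 tested proteasome subunits, 5 rose and 1 fell with DEP, 4 and 9 with DProP, 11 and 6 with DPP, and 0 and 4 with Mix. The genes whose log2 CPM followed that of UQCRB most closely over the 10 libraries were YWHAE (Pearson's r of 0.991), EEF1A1P4 (0.988), RPL26 (0.984), SOD1 (0.983) and PTTG1IP (0.982), among 19464 genes compared.

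Cell type markers moved with the treatments as well. For their counts the background over all genes tested was 13.5% lower with DEP, 17.5% with DProP and 19.5% with DPP. With Mix it was 10.7% lower and 9.71% higher. Progenitor markers summed to 3878 to 4262 CPM over treated libraries, against 6710 and 6765 CPM in vehicle libraries, and 5 or 6 of the 6 fell with each treatment. Astrocyte markers summed to 4618 to 5330 CPM over treated libraries and 8898 and 9098 CPM in vehicle libraries, with 5 of 6 lower in DEP, DProP and DPP and 3 of 6 in Mix. Neuron markers summed to 1041 to 1675 CPM over treated libraries and 2001 and 2070 CPM in vehicle libraries, with 4 of 8 lower in DEP, 6 in DProP, 6 in DPP and 2 in Mix, where 1 was higher. Oligodendrocyte markers summed to 423.5 to 609.9 CPM over treated libraries and 922.5 and 923.9 CPM in vehicle libraries, with 1 of 6 lower in each and 1 higher in Mix. Smooth muscle and mesenchyme markers summed to 25.5 to 41.6 CPM over treated libraries and 108.4 and 116.4 CPM in vehicle libraries, with 3 to 5 of the 5 tested lower. Markers of microglia, endothelium and muscle stayed under 6 CPM in sum, and AIF1, PTPRC, PECAM1, TNNT2, CKM and MYOD1 had 0 counts. The part of these differences in the members' results was not tested.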

How the data were processed

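Per the labels' protocols, a Maxwell kit was used to extract neurosphere RNA, and libraries were captured with SureSelect RNA Direct, which targets exons. The deposited values are whole-number read counts for each NCBI gene ID, with no scaling. Named in the submitters' processing notes are GRCh38, R 4.3.2, edgeR 4.0.9, StringTie 2.1.3b, HISAT2 2.1.0, FastQC and Trimmomatic 0.38. The sources used here do not name the counter, the annotation, the strand setting or the treatment of multi-mapping reads. For that reason values of genes with near-identical copies are uncertain. This applies to SDHA, COX6A1 and UQCRFS1 (pseudogene counts of 110.5%, 9.97% and 8.69% of the gene's), to UQCRH with UQCRHL and ATP5MG with ATP5MGL, and to ATP5MF, whose read-through gene held 75.5% of its count.

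Members, lists and the promoters shown were chosen with earlier results of these data known. The tests used edgeR 4.0.16 (R 4.3.3) after filterByExpr by group, which left 19465 genes, and TMM scaling. The quasi-likelihood model was robust, held a mean for each of the 5 groups over 10 libraries and had 5 residual degrees of freedom. Adjusted p values follow Benjamini and Hochberg over all genes tested within a comparison, with a threshold of 0.05. The common biological coefficient of variation was 9.4%. CPM values use the TMM factors, and the standard error is the size of the log2 fold change divided by the square root of F. With 2 libraries per group an exact permutation test of 1 gene cannot go below 0.333, so p values rest on the spread pooled over the 5 groups. The fits were tested on simulated data. Named were 10 core subunits (NDUFS1, NDUFV1, SDHA, SDHB, UQCRC1, UQCRFS1, COX4I1, COX5A, ATP5F1A and ATP5F1B), detected tissue-restricted isoforms, in each comparison up to 3 called members per complex by smallest p and the called members against the majority direction, and up to 3 called genes per list. Others were chosen after their values were seen.

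The alternative settings were library size alone, relative log expression factors, no filter, DESeq2 1.42.0, the replicate number as a block, offsets for GC content and coding length (lowess, span 0.3, from GENCODE 29), leaving out each library and, between treatments, leaving out both vehicle libraries. Identifiers of 44698 of 46427 genes matched RefSeq, and 32666 had a length and GC content. ATP5MD and ATP5MPL are ATP5MK and ATP5MJ in RefSeq.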

Additional observations from a re-analysis of the deposited data

How the results depend on the processing

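The call counts among members were compared with those under each alternative. With library size alone, 33 members were called with DEP against vehicle and 4 in Mix against DEP, and the member medians against vehicle were 0.14 (DEP), 0.03 (DProP), 0.12 (DPP) and 0.00 (Mix). Without a low-count filter, 1 was called in Mix against DEP. DESeq2 called 7 between DEP and DProP, 1 between DEP and DPP, 2 between DProP and DPP, 12 in Mix against DEP and 1 in Mix against DProP. The correction for GC content and length gave 1 between DEP and DPP, 1 in Mix against DEP, 2 in Mix against DProP and a DPP median of -0.10 against vehicle. Without both vehicle libraries, 1 was called between DEP and DProP, 1 between DProP and DPP, 5 in Mix against DEP and 1 in Mix against DProP. The TMM factors that library size alone leaves out were 0.9168 and 0.915 in vehicle libraries and 1.004 to 1.036 in treated libraries. The cause of the moves under these alternatives was not tested. Leaving out each library in turn gave 9 to 14 calls with DEP, 22 to 33 with DProP, 17 to 25 with DPP and 13 to 27 with Mix against vehicle, 0 to 0 in Mix against DEP and 4 to 6 in Mix against DPP. The member medians then ran from -0.06 to 0.04 with DEP, -0.19 to -0.10 with DProP, -0.14 to 0.02 with DPP and -0.20 to -0.09 with Mix. Replicate differences correlated by -0.0465 to 0.0471 between groups, which showed no strong effect shared by replicate number. Whether libraries of the same number were paired is not stated, and such correlations cannot decide it. With the replicate number as a block, 18 members were called with DEP, 32 with DProP, 27 with DPP, 25 with Mix, 1 in Mix against DEP and 12 in Mix against DPP. Of 1164 values of single named genes under alternatives, 985 kept their call status, 161 lost their call, 18 gained one and 0 reversed. Many of these genes were named for their smallest p in the same data, and the tally includes values without a call. It therefore does not measure how stable the calls of all members were. With 2 libraries per group, a member's unadjusted 95% interval reached a median of 0.17 on the log2 scale to each side. This width is no detection limit after adjustment, since some larger differences were not called. Examples are SDHD with DEP (0.45) and ATP5PD with Mix (0.76).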
